A study of Oryctolagus cuniculus with 57 samples.

Results

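Enterocytes, the absorptive cells of the small intestine, carry a keratin network, a calcium-dependent membrane-binding machinery and a set of surface proteins that set up and hold their apical and lateral faces. KRT18 and KRT20 are keratins of the simple epithelium, and KRT20 marks cells that have left the crypt. ANXA13 is an annexin of the intestine that binds phospholipids in the presence of calcium and takes part in apical transport, TM4SF4 is a membrane protein of the L6 family found in intestine and liver, CDH17 is the liver-intestine cadherin, and VIL1 is the villin that bundles the actin of the brush border. These 6 genes were chosen because they build the enterocyte, and they were selected on the age change measured in the FF rabbits described below, in which some of them were lower at day 49. That age change, and each difference between FF and another treatment, is therefore given as a description. A probe of the array could be named for 4 of the 6 genes, KRT18, ANXA13, TM4SF4 and CDH17, among 9635 named genes on the array and 8011 that stood above background. KRT20 and VIL1 were not analysed here. The study compared array and qPCR levels of KRT20, so that for KRT20 the limit lies in how probes were named here. All 4 probes were well above background on all 57 arrays, and no spot was saturated.

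The ileum of 57 young hybrid rabbits was profiled at day 35, the day of weaning, and at day 49, with 1 array for each rabbit. Before weaning all pups were nursed under control and had the feces of their own mother removed from the nest. The NF pups had no access to feces, the FF pups were offered feces of unrelated does without antibiotics, and the FFab pups were offered feces of unrelated does treated with tetracycline and tiamulin. Each treatment had 10 rabbits at day 35 and 9 at day 49. An NF rabbit of day 35 that the study set aside was left out, so that 56 rabbits entered the fits. The feces were given by nest, and litters did not enter the tests, so that the p-values measure the spread between rabbits. Levels are log2 intensities after normalization between arrays, and an age change is day 49 minus day 35 on that scale (log2FC). A gene was called when its adjusted p was below 0.05 and its log2FC beyond 0.5.

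The probes are shown because the measurements rest on a single short stretch of each transcript. Lower case marks the 60 bases of each probe, and for CDH17 the capitals mark the 56 bases that its 5 overlapping probes shared.
KRT18: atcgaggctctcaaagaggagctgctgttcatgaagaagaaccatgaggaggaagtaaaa
ANXA13: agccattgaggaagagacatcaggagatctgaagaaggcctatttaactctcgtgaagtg
TM4SF4: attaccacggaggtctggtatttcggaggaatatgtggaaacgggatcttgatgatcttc
CDH17: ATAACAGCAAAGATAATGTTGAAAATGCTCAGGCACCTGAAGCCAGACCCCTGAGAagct
On the rabbit build oryCun2 named in the files, the ANXA13 probe lay on the minus strand of chromosome 3 between 139482386 and 139486257, a span of 3872 bases that is longer than the probe and so crosses intronic sequence. The TM4SF4 probe lay on the plus strand of chromosome 14 between 43279860 and 43280600, again across intronic sequence, since its span is 741 bases. The CDH17 probe lay without a gap on the minus strand of chromosome 3 between 109752109 and 109752168. The KRT18 probe, printed in 2 spots, was unmapped in the files, and its name rests on the annotation table of the study. Over the 56 rabbits the other 4 CDH17 probes correlated with the one used at r between 0.981 and 0.991, and since they overlap they are no independent measurement.

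Between 68.2% and 85.7% of the probes stood above background on each array, and the arrays lay on 9 slides of 6 or 7 arrays that mixed the groups. All 8 genes of a list of ileal enterocyte markers that were on the array stood above background in the series, but some rabbits departed from that label. SLC10A2, the ileal bile acid transporter, was not well above background in 5 rabbits, namely 2 of FFab at day 35, 2 of FFab at day 49 and 1 of NF at day 49. Its level lay between 2.10 and 5.23 in 7 rabbits and between 8.09 and 13.58 in the other 49. FABP6, the ileal bile acid binding protein, had a median of 19.19 over the 56 rabbits and fell as low as 7.87. Age changes and differences that moved by over 1.5 times when the 5 rabbits were left out are given both ways below, an alternative chosen after seeing the data. The position along the gut at which each sample was taken was not tested, and its part in the levels and age changes below was not tested. In whole tissue, fewer cells of a type and less RNA per cell cannot be told apart.

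KRT18, which pairs with KRT8 in the keratin filaments of simple epithelia, had its largest age difference in FF. Its level in FF ran from 10.54 over a median of 11.01 to 11.96 at day 35, and from 10.13 over 10.41 to 10.72 at day 49. In NF it ran from 10.17 over 10.64 to 11.06 at day 35 and from 10.07 over 10.52 to 11.41 at day 49, and in FFab from 10.37 over 10.75 to 11.31 and from 10.15 over 10.57 to 11.30. All 9 FF rabbits of day 49 lay below the FF median of day 35, 5 of them below the lowest rabbit of day 35, against 6 of 9 in NF and 8 of 9 in FFab below the median of day 35 and 1 in each below its lowest rabbit. The log2FC was -0.63 ± 0.16 (SE) in FF, -0.08 ± 0.16 in NF and -0.21 ± 0.16 in FFab, and without the 5 rabbits the value in NF was -0.18 ± 0.16. All 3 values were known when KRT18 was picked and were not tested. FF rabbits had the highest mean of the 6 groups at day 35, 11.09 ± 0.42 (SD, n = 10), and the lowest at day 49, 10.46 ± 0.25 (n = 9). The next group to FF at day 35 was FFab at day 35, at 10.77 ± 0.30, and that gap was smaller than the SD of the FF group. Within slides, KRT18 was lower at day 49 on 8 of 9 slides in FF, 4 of 8 in NF and 7 of 9 in FFab.

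ANXA13 had a lower mean at day 49 in each treatment, with a wide spread among rabbits of a group. In FF the level ran from 14.36 over a median of 15.58 to 16.84 at day 35, and from 13.66 over 14.04 to 14.58 at day 49. In NF it ran from 13.78 over 15.95 to 17.00 at day 35, and from 13.999 over 14.38 to 16.41 at day 49. In FFab it ran from 14.10 over 15.67 to 16.78 at day 35, and from 13.88 over 14.09 to 16.69 at day 49. In FF, 7 of 9 rabbits of day 49 were below the lowest rabbit of day 35. In NF and FFab the medians of day 49 were near that of FF, but a few rabbits stood as high as at day 35. These were 2 FFab rabbits (16.66 and 16.69) and 1 NF rabbit (16.41), followed by another NF rabbit (15.34). The group mean was 15.67 ± 0.82 (SD, n = 10) at day 35 and 14.04 ± 0.33 (n = 9) at day 49 in FF, a log2FC of -1.63 ± 0.41 (SE) or a 3.101-fold lower intensity, which is a description. In NF the log2FC was -0.83 ± 0.42 (p = 0.0526, adjusted p = 0.814) and in FFab -0.78 ± 0.41 (p = 0.0621, adjusted p = 0.623), and neither was called. Averaged over NF and FFab it was -0.80 ± 0.29 (p = 0.00814, adjusted p = 0.157), again not called. Without the 5 rabbits whose SLC10A2 was not well above background this average was -1.05 ± 0.25 with an adjusted p of 0.0186 and was called. Those 5 rabbits had ANXA13 levels from 16.41 to 16.78 and so stood near the top of the range. SLC10A2 ran against ANXA13 across rabbits (r = -0.74). Leaving these rabbits out therefore selects in part on ANXA13 itself, and no conclusion is drawn from that call. Array weights gave -0.92 ± 0.25 with an adjusted p of 0.0181, a call as well, and over all alternatives the adjusted p ran from 0.0181 to 0.250. Within slides, ANXA13 was lower at day 49 on 9 of 9 slides in FF, 7 of 8 in NF and 6 of 9 in FFab. The order of the 6 group means put the 3 groups of day 49 below the 3 groups of day 35, and no neighbouring means differed beyond their SD.

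TM4SF4 had the largest log2FC of the 4 genes and the largest spread. In FF the level ran from 14.79 over a median of 16.32 to 17.32 at day 35, and from 12.43 over 14.25 to 14.94 at day 49. In NF it ran from 13.68 over 16.07 to 17.47 and from 12.83 over 14.93 to 17.30. In FFab it ran from 11.77 over 15.84 to 17.65 and from 12.13 over 13.21 to 17.44. In FF, 8 of 9 rabbits of day 49 lay below the lowest of day 35, against 2 of 9 in NF and 0 of 9 in FFab. The rabbits that were high in ANXA13 at day 49 were high here too, with 17.44 and 17.21 in the 2 FFab rabbits and 17.30 in the NF rabbit. Among the 27 rabbits of day 49, 4 of the 5 highest in ANXA13 were also among the 5 highest in TM4SF4. The log2FC was -2.38 ± 0.66 (SE) in FF, a 5.22-fold lower intensity given as a description. It was -0.84 ± 0.67 in NF (adjusted p = 0.989), -1.24 ± 0.66 in FFab (p = 0.064, adjusted p = 0.634) and -1.04 ± 0.47 averaged over NF and FFab (p = 0.031, adjusted p = 0.288). None of these 3 was called. Without the 5 rabbits whose SLC10A2 was not well above background the average was -1.43 ± 0.43 with an adjusted p of 0.0687. Those rabbits had TM4SF4 levels from 16.99 to 17.44, so that leaving them out selects in part on TM4SF4 too. Over all alternatives the adjusted p of the average ran from 0.0687 to 0.405. Within slides, TM4SF4 was lower at day 49 on 9 of 9 slides in FF, 7 of 8 in NF and 5 of 9 in FFab. The 56 rabbits spanned a 58.8-fold range of TM4SF4, against 10.09-fold for ANXA13, 3.70-fold for KRT18 and 2.68-fold for CDH17. The SD of TM4SF4 within groups, 1.46, was above that of 98.9% of the genes, and the SD of ANXA13, 0.90, above that of 94.2%. The median SD over all genes was 0.33, near the 0.34 of KRT18 and the 0.35 of CDH17.

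CDH17, which joins enterocytes to each other along their lateral faces, moved least. In FF its level ran from 13.58 over a median of 14.12 to 14.60 at day 35 and from 13.28 over 13.79 to 14.04 at day 49. In NF it ran from 13.17 over 13.92 to 14.45 and from 13.32 over 13.84 to 14.46, and in FFab from 13.51 over 14.06 to 14.58 and from 13.45 over 13.99 to 14.43. The 2 ages overlapped in each treatment. The log2FC was -0.33 ± 0.16 (SE) in FF, below the 0.5 needed for a call. It was -0.07 ± 0.16 in NF (adjusted p = 0.998), -0.20 ± 0.16 in FFab (adjusted p = 0.829) and -0.13 ± 0.11 averaged over both (adjusted p = 0.690, 95% interval -0.36 to 0.10). Without the 5 rabbits the value in NF was -0.15 ± 0.16. The means of the 6 groups lay between 13.70 ± 0.25 in FF at day 49 and 14.06 ± 0.40 in FFab at day 35.

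**Figure D1:**
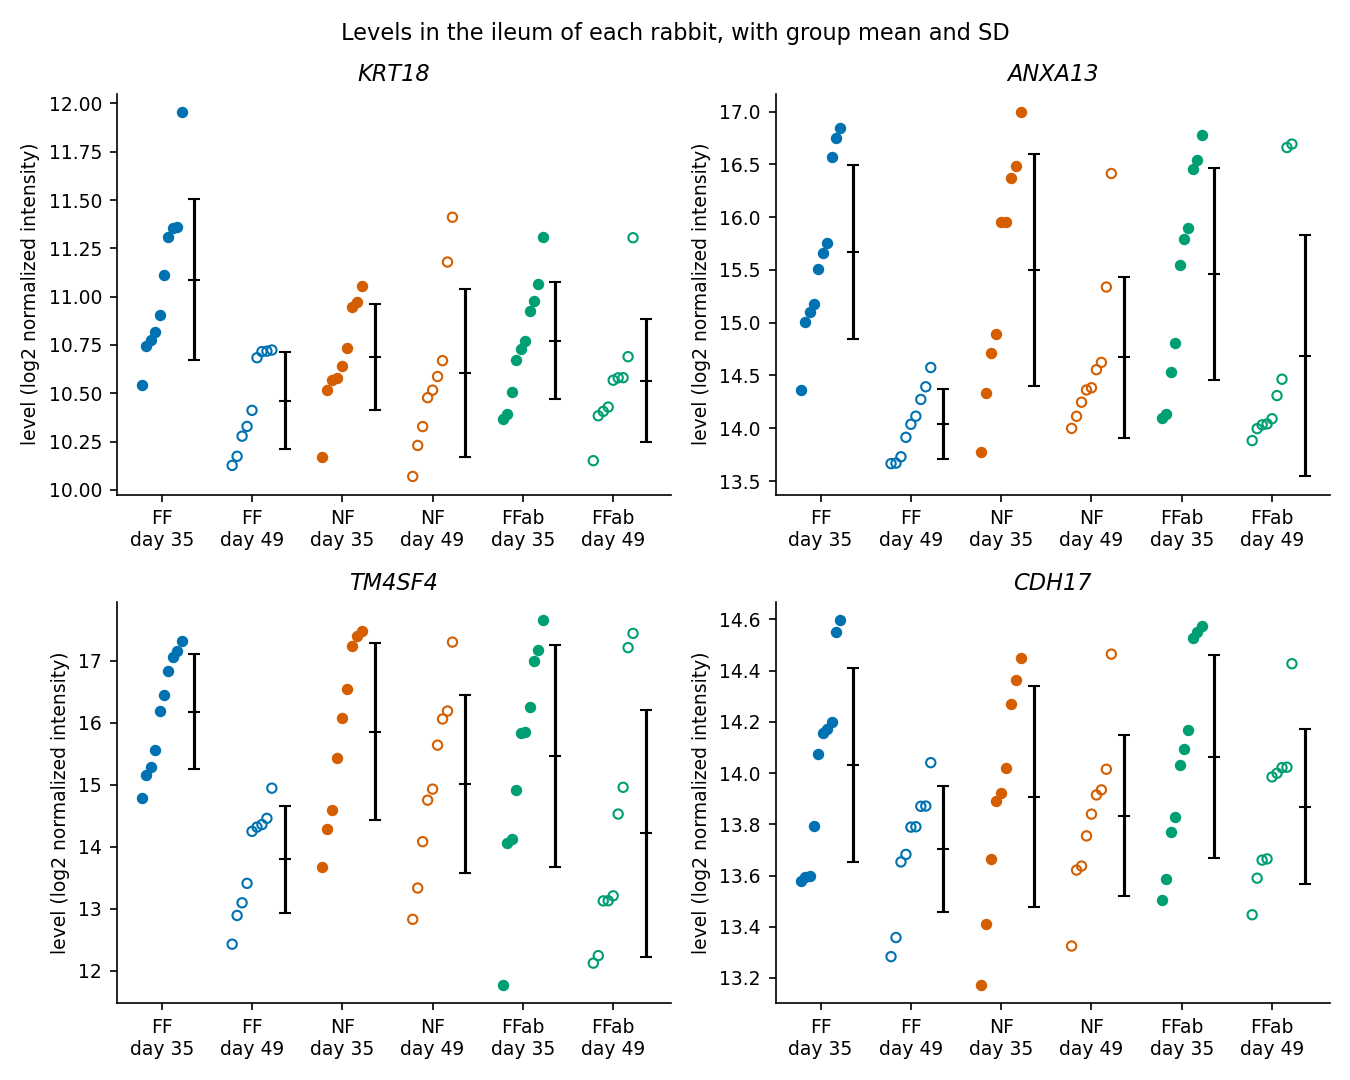
Level of the 4 genes in each of the 56 rabbits (y axis, log2 normalized intensity, with a separate scale for each gene) by treatment and age (x axis). Filled points are rabbits of day 35, open points rabbits of day 49, and the bars give the group mean and SD. At day 49, ANXA13 reaches at most 14.58 and TM4SF4 at most 14.94 in the 9 FF rabbits. At that age 2 FFab rabbits and 1 NF rabbit lie at 16.41 or more in ANXA13 and at 17.21 or more in TM4SF4.

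Of the 4 genes, KRT18, ANXA13 and TM4SF4 were called lower in FF, where 1.5% of the 8011 genes were called lower, 2.82% higher and 4.32% in either direction. That contrast chose the genes, and nothing is read from the count. For 0 of the 4 genes did all rabbits of day 49 lie below all rabbits of day 35, which 0.387% of all genes did in FF, 0.025% in NF and 0% in FFab. Of the 3 genes tested in the other treatments, 0 were called in NF, 0 in FFab and 0 in their average, where 0.0374%, 0.0749% and 0.624% of all genes were called (lower, 0.0125%, 0% and 0.15%). By unadjusted p below 0.05, 484, 678 and 1117 of all genes passed in these 3 comparisons. Among the 8011 genes ordered from the largest fall, the average over NF and FFab put TM4SF4 at 16 and ANXA13 at 32, with KRT18 at 1245 and CDH17 at 1338, and the median over all genes was -0.01. This order is by log2FC alone and takes no account of the spread. The SD within groups was above that of 98.9% of genes for TM4SF4 and 94.2% for ANXA13. Between NF and FFab, limma called 0 of the 3 tested genes at either age, where 0 of 8011 genes were called and 163 (day 35) and 149 (day 49) passed an unadjusted p below 0.05. The interval of that difference was wide for TM4SF4, 0.39 at day 35 (95% interval -0.92 to 1.71) and 0.79 at day 49 (-0.56 to 2.14). For ANXA13 it was 0.04 (-0.78 to 0.85) and -0.01 (-0.85 to 0.82), and for CDH17 -0.16 (-0.48 to 0.17) and -0.03 (-0.36 to 0.30). Without the 5 rabbits the difference at day 35 and day 49 was 0.80 ± 0.59 (SE) and 1.39 ± 0.63 for TM4SF4, 0.33 ± 0.35 and 0.34 ± 0.37 for ANXA13, and -0.03 ± 0.16 and -0.01 ± 0.17 for CDH17, again with 0 calls. The age change itself differed between NF and FFab by -0.05 (-1.22 to 1.12) for ANXA13, 0.40 (-1.49 to 2.29) for TM4SF4 and 0.12 (-0.34 to 0.58) for CDH17, each with an adjusted p of 0.999, and without the 5 rabbits by 0.01, 0.60 and 0.02. The age change in FF minus that in NF was -0.55 ± 0.22 (SE) for KRT18, -0.81 ± 0.58 for ANXA13, -1.54 ± 0.94 for TM4SF4 and -0.25 ± 0.23 for CDH17, and minus that in FFab -0.42 ± 0.22, -0.86 ± 0.58, -1.14 ± 0.93 and -0.13 ± 0.23. Without the 5 rabbits the difference from FFab was -0.66 ± 0.84 for TM4SF4 and -0.58 ± 0.49 for ANXA13. These values are a description because FF chose the genes, and in the same fit the age change was called different between FF and NF, or between FF and FFab, for 0 of the 8011 genes (361 and 230 at an unadjusted p below 0.05).

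**Figure D2:**
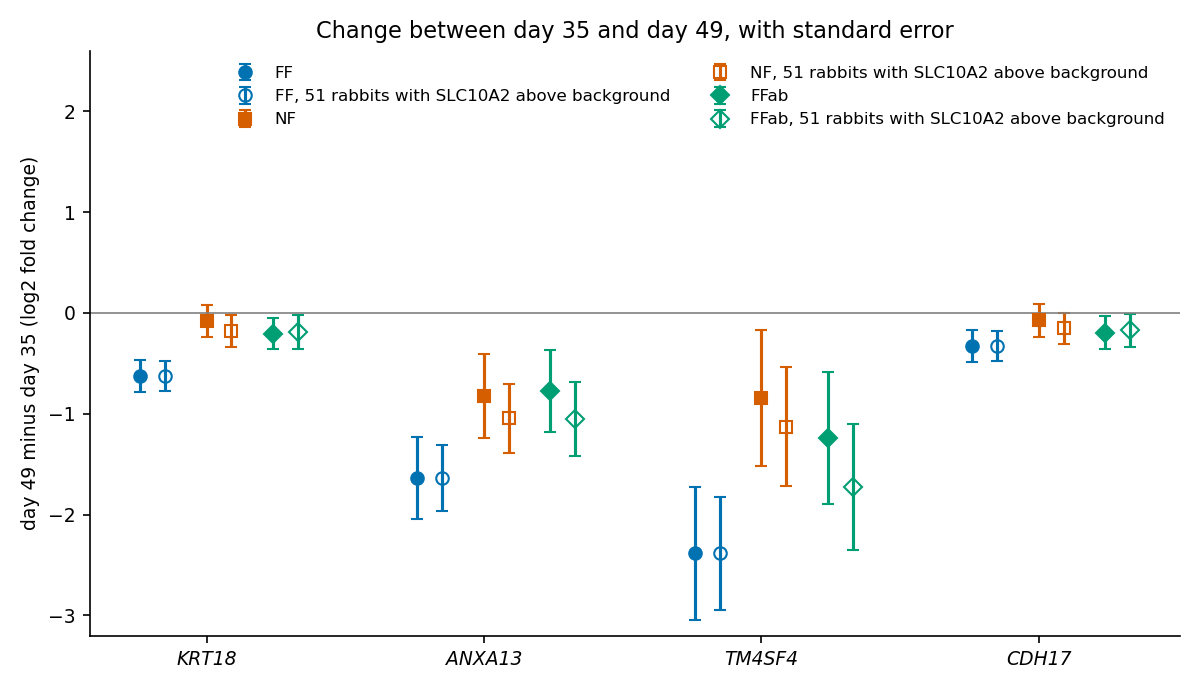
Age change of the 4 genes (y axis, log2FC between day 35 and day 49) in FF, NF and FFab, with the standard error. Filled symbols use all 56 rabbits and open symbols the 51 rabbits in which SLC10A2 was well above background. For ANXA13 the change in NF is -0.83 with all rabbits and -1.05 with the 51. In FF it is -1.63 with both, since 0 FF rabbits were left out.

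ANXA13, TM4SF4 and CDH17 varied together among rabbits of the same group, and over all groups pooled no correlation of KRT18 with them was detected. After the 6 group means were removed, ANXA13 and TM4SF4 correlated over 56 rabbits with Pearson r = 0.847 (permutation p = 1e-05, adjusted p = 2e-05) and Spearman rho = 0.829 (permutation p = 1e-05, adjusted p = 2e-05). For ANXA13 and CDH17 r was 0.699 and rho 0.661, and for TM4SF4 and CDH17 r was 0.719 and rho 0.729, with the same permutation p-values for each, the smallest that 100000 resamples can give. All 3 relations were positive in 6 of 6 groups. Without the 2 rabbits farthest from the median of the first gene r was 0.811, 0.698 and 0.713, and with slide means removed as well 0.852, 0.724 and 0.710. KRT18 correlated with ANXA13 at r = -0.134 (permutation p = 0.339, adjusted p = 0.508), with TM4SF4 at -0.043 (permutation p = 0.766) and with CDH17 at 0.001 (permutation p = 0.993). In these pairs rho was -0.163, -0.083 and -0.009, and its adjusted permutation p 0.360, 0.670 and 0.953. Within single groups of 9 or 10 rabbits, the r of KRT18 ran from -0.78 to 0.37 with ANXA13. With TM4SF4 it ran from -0.59 to 0.51 and with CDH17 from -0.59 to 0.75. It was above 0 in 3, 3 and 4 of the 6 groups, and whether groups differ was not tested. In all, 6 pairs were computed. The rabbits did not form an even cloud. The 12 rabbits lowest in HOXA10, a gene described below, were 9 of day 35 and 3 of day 49, and sat at the top of both genes. Their ANXA13 was 16.37 or more, against at most 15.96 in the rest. Their TM4SF4 was 16.99 or more, with the rest reaching 16.83. The pooled correlations rest in part on the distance between these rabbits and the rest, and the values within subsets are given below with HOXA10. Without the 5 rabbits whose SLC10A2 was not well above background r was 0.759 for ANXA13 and TM4SF4, 0.624 for ANXA13 and CDH17 and 0.661 for TM4SF4 and CDH17.

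**Figure D3:**
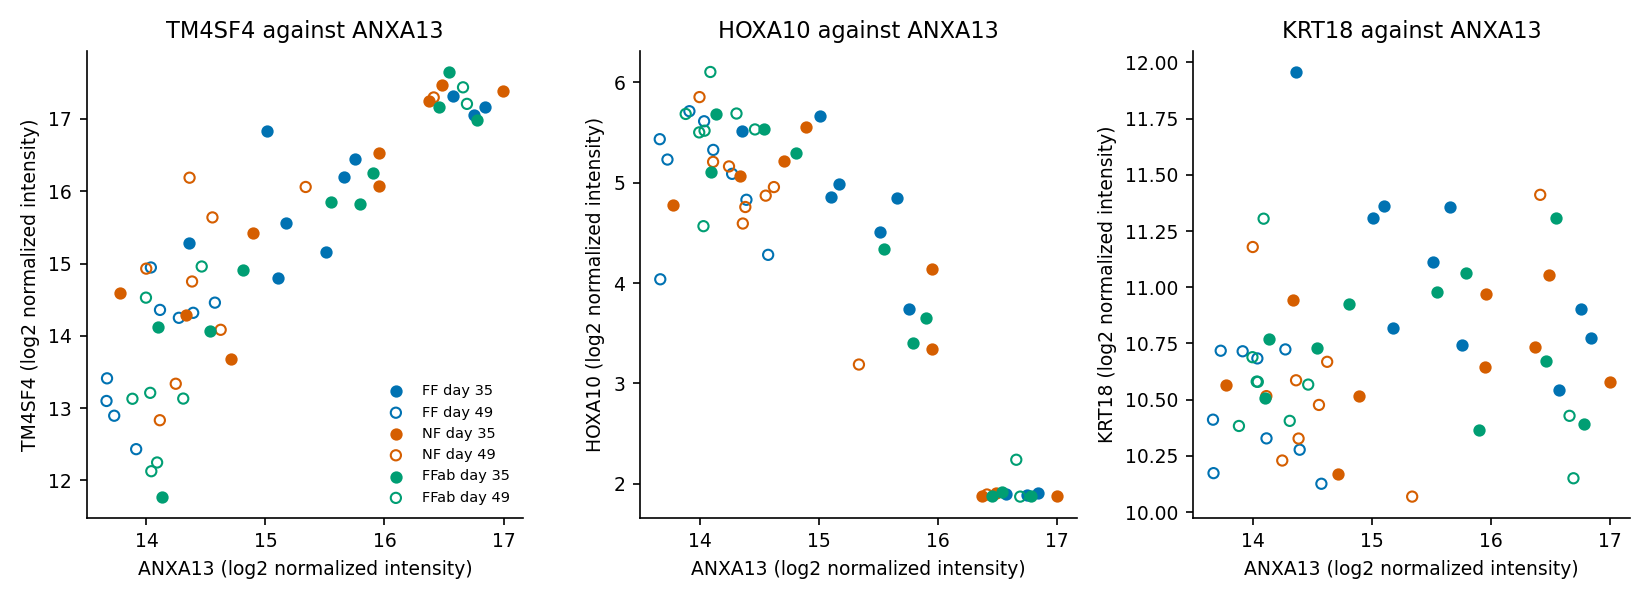
Level of TM4SF4, HOXA10 and KRT18 (y axes) against that of ANXA13 (x axis) in each of 56 rabbits, all as log2 normalized intensity. Colours give the treatment, filled points day 35 and open points day 49. The 12 rabbits lowest in HOXA10, at 2.24 or less, have ANXA13 of at least 16.37 and lie at the top of TM4SF4, while KRT18 shows no such order.

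These 12 rabbits were marked off by the widest gap in the level of HOXA10, which was itself picked for its correlation with ANXA13. That they are high in ANXA13 is therefore no separate finding. HOXA10 is a homeobox gene of the HOX clusters, which pattern the embryo, the gut included, from head to tail. HOXA10 had the lowest correlation with ANXA13 of all 8010 other genes (r = -0.92) and with TM4SF4 (r = -0.79), and was singled out after these values were seen. Its level was between 1.87 and 2.24 in the 12 rabbits and between 3.19 and 6.10 in the other rabbits, and it was not well above background in 18 rabbits, whose values carry no order. The 18 were 4 FF, 5 NF and 5 FFab rabbits of day 35, or 14 of 29, and 0 FF, 2 NF and 2 FFab rabbits of day 49, or 4 of 27. The HOX genes were then counted as a family. Of 17 HOX genes on the array, 12 passed the background filter. Of these 12, 8 correlated with ANXA13 below -0.5, 7 with TM4SF4 and 7 with CDH17, beside 7.17%, 3.31% and 3.25% of all genes, and 0 did so with KRT18. The lowest after HOXA10 were HOXB6 (r = -0.88 with ANXA13), HOXD3 (-0.87), HOXD10 (-0.87) and HOXB1 (-0.85), while HOXA2 (0.29) and HOXC13 (0.15) did not share the pattern. Some of these counts rest in part on values near background too. HOXD3 was well above it in 45 of 56 rabbits, HOXD10 in 41, HOXC6 in 40 and HOXA11 in 39, against 55 for HOXB6 and 56 for HOXB1. GATA4, a transcription factor of the upper small intestine, ran the other way, with r = 0.83 with ANXA13, 0.71 with TM4SF4, 0.66 with CDH17 and -0.06 with KRT18, though over the 38 rabbits with HOXA10 well above background its r with ANXA13 was 0.08, and over the other 18 it was 0.83.

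Limma called 0 of the 12 HOX genes in FF, NF or FFab, where 0, 0 and 1 passed an unadjusted p below 0.05. Since HOXA10 was near background in many rabbits, the size of its age difference is not given. In FF the HOXA10 level ran from 1.89 over a median of 4.68 to 5.66 at day 35 and from 4.04 over 5.23 to 5.71 at day 49, so that no FF rabbit of day 49 was at the bottom of its range. The 3 rabbits that were high in ANXA13 at day 49 were at the bottom, with 1.87 and 2.24 in the 2 FFab rabbits and 1.89 in the NF rabbit. In the same order SLC10A2 was at 2.10, 3.20 and 2.36 and GATA4 at 8.16, 7.91 and 8.61. The 18 rabbits with HOXA10 not well above background had ANXA13 levels from 15.34 to 17.00, and the other 38 from 13.66 to 15.66, so that a split by HOXA10 is nearly a split by ANXA13. Within the 38 rabbits r was 0.470 for ANXA13 and TM4SF4, 0.513 for TM4SF4 and CDH17 and 0.152 for ANXA13 and CDH17, and within the 18 it was 0.841, 0.665 and 0.692. ANXA13 and HOXA10 had r = -0.344 over the 38. These values are a description over a narrowed range of ANXA13, which can lower r. The part of the HOX pattern in the age changes was not tested.

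The genes most like ANXA13 across the 56 rabbits were SLC27A4, a fatty acid transport protein (r = 0.92), SGPL1, the lyase of sphingosine phosphate (0.92), the cytochrome CYP2J2 (0.91), the brush border carboxypeptidase CPO (0.91) and the monooxygenase FMO5 (0.90). For TM4SF4 they were ANXA13 itself (0.85), the cholesterol transporter NPC1L1 (0.83), the nuclear receptor NR0B2 (0.80), SLC27A4 (0.80) and TMEM184B (0.80). For CDH17 they were SOAT2, which esterifies cholesterol (0.76), EPOR (0.76), FA2H, which hydroxylates fatty acids (0.75), the L6 protein TM4SF5 (0.75) and the fatty acid binding protein FABP1 (0.74). KRT18 had a different company, in WSB1 (0.74), LTV1 (0.70), AIMP1 of the tRNA synthetase complex (0.68), MAK16 (0.68) and DIMT1 (0.68), of which LTV1, MAK16 and DIMT1 serve ribosome assembly. With slide means removed these 5 dropped to between 0.52 and 0.61, whereas the 5 genes nearest ANXA13 were between 0.89 and 0.96. The points of these correlations share the arrays and the normalization. In FF the genes near ANXA13 and TM4SF4 had log2FC values from -0.51 ± 0.35 (FMO5) to -3.22 ± 1.04 (NPC1L1), and 0 of the genes in these lists were called in the average over NF and FFab, where NPC1L1 was at -1.68 ± 1.06 in NF and -1.99 ± 1.04 in FFab.

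In a list of enzymes and carriers of the enterocyte, 0 genes were called lower in any treatment. The list does not hold the carriers SLC27A4 and NPC1L1, which were at -1.39 ± 0.42 and -3.22 ± 1.04 in FF. NPC1L1 is among the genes that the study reports as lower in FF. Of 18 above background, 0 were called in NF, FFab or their average, where 0, 3 and 4 passed an unadjusted p below 0.05, and the median log2FC of the average was 0.15 beside -0.01 for all genes. In FF 4 of the 18 were called higher, beside 2.82% of all genes, among them the alkaline phosphatase ALPI at 1.13 ± 0.28 and the glucose transporter SLC5A1 at 0.80 ± 0.19. Across rabbits, however, 11 of the 18 correlated with ANXA13 above 0.5, beside 6.58% of all genes. The 7 highest were MTTP, which loads lipoproteins (r = 0.89), FABP1 (0.84), the diacylglycerol acyltransferase DGAT1 (0.84), the fatty acid binding protein FABP2 (0.83), the trehalase TREH (0.83), the peptidase MME (0.82) and the apolipoprotein APOA1 (0.82). With KRT18, 0 of the 18 passed 0.5. Of 8 ileal enterocyte genes, 4 correlated with ANXA13 below -0.5, NR1H4, the bile acid receptor (-0.75), SLC10A2 (-0.74), FABP6 (-0.61) and SLC51A, a bile acid exporter (-0.58), and 2 above 0.5, CLRN3 (0.60) and FGF19 (0.56). Of 20 genes of adhesion and junctions, 2 correlated with ANXA13 above 0.5, among them OCLN (0.72), and 3 with CDH17, among them F11R (0.55).

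Among genes of the same families and of the cell's scaffold, limma made 0 calls in NF, FFab or their average. At an unadjusted p below 0.05 the average held 4 of 16 brush border genes, 2 of 20 adhesion and junction genes, 1 of 9 annexins, 0 of 3 L6 proteins and 0 of 2 keratins, beside 13.9% of all genes. Of 2 other keratins, KRT8, the partner of KRT18, was at 0.01 ± 0.08 (SE) in the average over NF and FFab and KRT19 at -0.06 ± 0.09 (adjusted p = 0.969 and 0.855). KRT8 did not follow KRT18 across rabbits (r = -0.15). Of 9 other annexins, 0 were called, with the smallest adjusted p for ANXA3 (-0.21 ± 0.06, adjusted p = 0.0836) followed by ANXA8 (-0.24 ± 0.17, adjusted p = 0.578). ANXA8 and ANXA6 ran against ANXA13 across rabbits, both at r = -0.74. Of 3 other L6 proteins 0 were called, with TM4SF18 at 0.13 ± 0.10 and TM4SF20 at 0.17 ± 0.16 (adjusted p = 0.614 and 0.733), and TM4SF5 correlated with ANXA13 at r = 0.83, with a log2FC of -0.29 ± 0.46 (adjusted p = 0.863). Of 16 genes of the brush border and its actin core 0 were called in NF, FFab or their average, although PLS1, plastin 1, had an adjusted p of 0.0239 at a log2FC of 0.41 ± 0.10 that missed the fold threshold, and ANKS4B was at 0.52 ± 0.16 (adjusted p = 0.0710). PLS1 and EPS8, both actin bundling proteins, were called higher in FF, at 0.85 ± 0.14 and 0.52 ± 0.15. Of 20 genes of adhesion and junctions 0 were called, with TJP1 at -0.35 ± 0.14 and CLDN23 at 0.15 ± 0.07 (adjusted p = 0.212 and 0.296). Of 10 transcription factors of the intestinal epithelium 0 were called, with ELF3 at 0.21 ± 0.11 (adjusted p = 0.370).

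**Figure D4:**
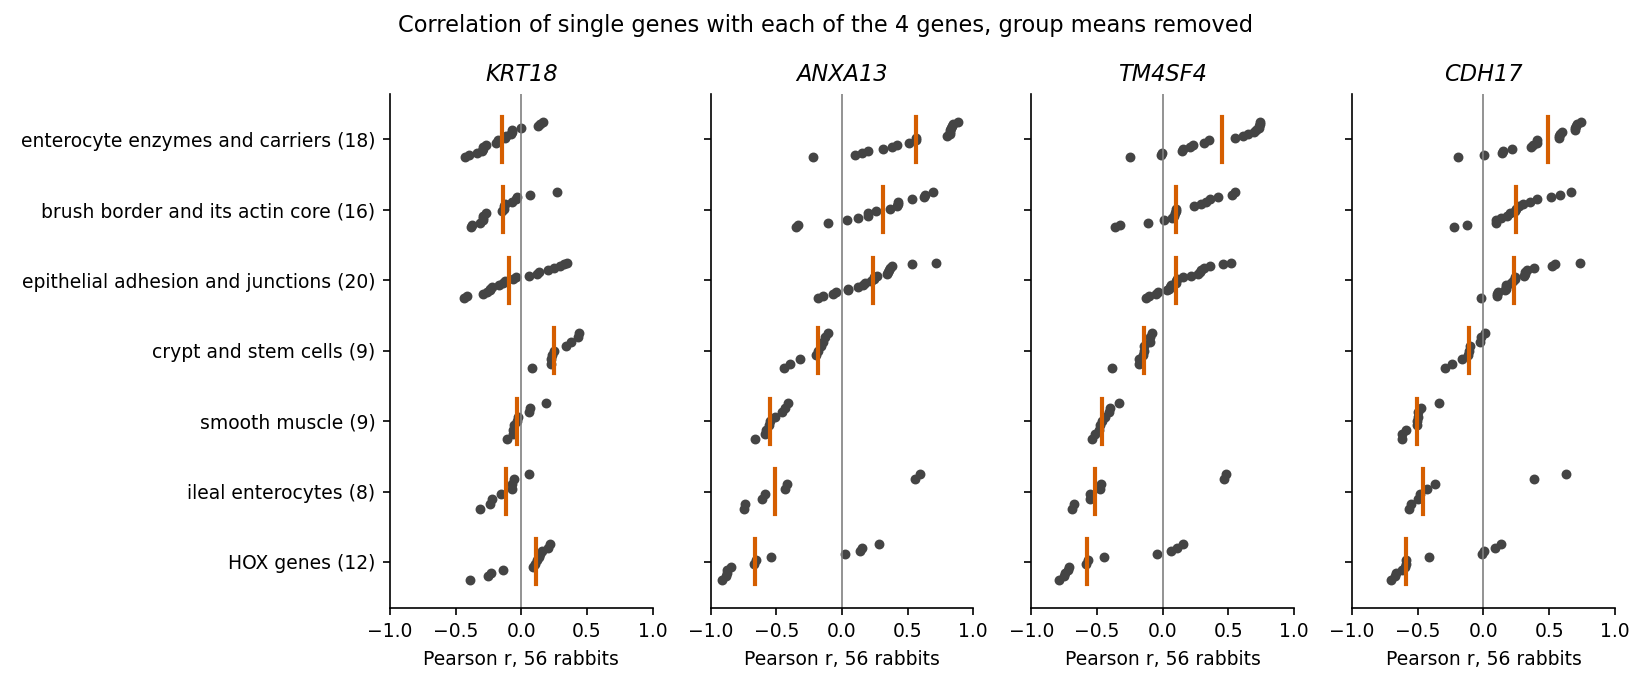
Correlation (x axis, Pearson r over 56 rabbits after removal of the group means) of single genes, 1 point each, with KRT18, ANXA13, TM4SF4 and CDH17, by gene list (y axis, number of genes in brackets). The orange bar is the median of the list. For ANXA13 the median is 0.56 for the enterocyte enzymes and carriers and -0.66 for the HOX genes, and for KRT18 it is -0.15 and 0.11.

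Markers of other cells were correlated with the 4 genes across rabbits. The mean of 9 smooth muscle markers correlated with ANXA13 at r = -0.59, with TM4SF4 at -0.50 and with CDH17 at -0.58, and that of 7 fibroblast markers at -0.59, -0.49 and -0.57. Goblet cell markers (4 genes) stood at -0.58 with ANXA13 and 0.49 with KRT18, and crypt and stem cell markers (9 genes) at -0.40 and 0.51. KRT18 also followed the endothelial markers (7 genes, r = 0.47). The highest r of a single crypt and stem cell gene with KRT18 was 0.44. Slide means were not removed from these correlations, and the genes nearest KRT18 had a lower r once they were. The smooth muscle mean ranged from 10.61 to 11.88 in FF at day 35 and from 11.16 to 12.35 in FF at day 49. In NF it ranged from 10.96 to 12.29 and from 11.01 to 11.96, and in FFab from 10.54 to 12.85 and from 10.64 to 12.54. Limma called 0 of its 9 genes in FF, NF or FFab (2, 0 and 0 at an unadjusted p below 0.05). The crypt mean ranged from 9.14 to 10.22 and from 9.22 to 9.57 in FF. In NF it ranged from 9.18 to 9.84 and from 8.79 to 9.75, and in FFab from 9.26 to 9.77 and from 9.17 to 9.73. Again 0 of 9 genes were called (0, 1 and 0 at an unadjusted p below 0.05). Outside the epithelium, 4 of 6 fat cell genes were called higher in the average over NF and FFab, beside 0.474% of all genes, with THRSP at 1.14 ± 0.19 and FABP4 at 1.73 ± 0.34, and of the Paneth cell list the single gene above background, ITLN2, was called at 1.44 ± 0.39. The 4 called fat cell genes correlated with ANXA13 between -0.48 (LPL) and -0.21 (THRSP), and CD36, a fatty acid carrier that was not called (-0.86), at 0.88. The mean of 6 red blood cell genes correlated with ANXA13 at 0.57 and with TM4SF4 at 0.40. Among them EPOR, the erythropoietin receptor, stood at 0.84 with ANXA13 and CA1 at -0.28. The mean of that list was 7.16 ± 0.64 (SD) at day 35 and 6.26 ± 0.17 at day 49 in FF, 6.79 ± 0.42 and 6.27 ± 0.40 in NF and 6.75 ± 0.46 and 6.29 ± 0.37 in FFab. Of its 6 genes 2 were called lower in FF, and 0 in NF, FFab or their average (1, 1 and 3 at an unadjusted p below 0.05). The part of these cell types in the age changes of the 4 genes was not tested.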

How the data were processed

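Ileal RNA of 57 rabbits was hybridised to 1-colour Agilent arrays. The authors deposited the scanner output of each array, in which the spots hold background-subtracted intensity values made with Agilent Feature Extraction (version 10.7.3.1 per the labels, 10.10.1.1 per the file headers), and their own normalized log2 levels of 33284 probes. Intensity was averaged over the spots of each of 42089 probes without outlier spots, set to log2 and quantile normalized. The deposited log2 table correlated with these values at a median r of 0.989. Probes were kept where at least 50% of their spots were well above background in 75% of the arrays of a group, and named through accessions, gene names and the annotation table of the study. The probe of median level stood for a gene with several. Groups came from the labels. Differences were fitted with limma 3.58.1 in R 4.3.3 over 56 arrays with 6 group means, and p-values were adjusted by the Benjamini-Hochberg method over 8011 genes. The fit was tested on simulated data. Correlations used deviations from group means and two-sided permutation within groups (100000 resamples). Array data give no depth, and the number of rabbits limits the precision.

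The genes and lists were chosen with earlier results of these data known. Named from each list were genes called outside FF, up to 4 by smallest p, and for structure lists the 2 with the smallest p where none was called, beside the 5 genes most like each of the 4. HOX genes, GATA4, SLC10A2 and the other genes named for a correlation or for FF were chosen after their values were seen. Alternatives were all 57 arrays, slide as a block, normexp background correction, 75th percentile centring, the deposited table, other filters and probes, array weights, NF and FFab arrays alone, and leaving out single rabbits. Slides were read from a code in the name of the scanner output of each array. Results for some genes that this rule names are not reported here.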

Additional observations from a re-analysis of the deposited data

Results flagged for a closer look

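In the FFab group of day 49, the highest KRT18 level was 11.30, while the nearest of the other 8 rabbits was at 10.69 and the group ran down to 10.15. The gap of 0.62 was 0.534 of the range of the group, above the 0.493 of Dixon's test at 9 samples. This was 1 of 24 sets of values examined (4 genes in 6 groups), and chance alone marks about 1 in 20. The array of this FFab rabbit shared a slide with other rabbits that were highest in KRT18 in their group. These were at 11.96 in FF and 11.31 in FFab at day 35. In NF they were at 11.06 at day 35 and 11.41 at day 49. In FF at day 49 the rabbit of that slide was at 10.68, below the highest at 10.72. The part of the slide in these levels was not tested.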

How the results depend on the processing

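Beside leaving out single rabbits, 12 alternatives were run, 1 of them chosen after seeing the data (leaving out the 5 rabbits with SLC10A2 not well above background). Of 527 values, 515 were counted as unchanged. For tested differences this meant the same direction and the same side of the threshold. Untested differences and counts of calls were not held to this rule. The KRT18 difference NF minus FFab, which was not tested, changed sign and was still counted as unchanged. At day 35 it was -0.08 and reached 0.02 with all 57 arrays. At day 49 it was 0.04 and reached -0.14 without the SLC10A2 rabbits. Leaving out rabbits by HOXA10 was also tried after seeing the data and was withdrawn, since HOXA10 had been singled out by its correlation with ANXA13 and the split selects on the outcome. Leaving out rabbits by SLC10A2 selects in part on ANXA13 and TM4SF4 as well, and its values are a description. The number of tested genes called in the average over NF and FFab was 0, but 1 (ANXA13, log2FC -0.9192) with array weights and 1 (ANXA13, -1.0498) without the SLC10A2 rabbits. Over all genes, that comparison held between 28 (NF and FFab arrays only) and 164 calls (array weights), against 50. The ANXA13 difference NF minus FFab changed sign at day 35 with slide as a fixed block (-0.0343), at day 49 with array weights (0.0625) and without the SLC10A2 rabbits (0.3361), and in the age change with slide as a fixed block (0.0194) and without the SLC10A2 rabbits (0.0087). The correlation of KRT18 and CDH17 changed sign with slide means removed (-0.1014) and without the SLC10A2 rabbits (-0.0134), and that of KRT18 and TM4SF4 with all 57 arrays (0.0342). The cause was not tested for any of these.

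Leaving out 1 rabbit at a time moved ANXA13, NF minus FFab, from -0.1502 to 0.2526 at day 35, from -0.2328 to 0.236 at day 49 and from -0.2703 to 0.1985 in the age change. It moved TM4SF4, NF minus FFab at day 35, from -0.0159 to 0.6658 and CDH17 at day 49 from -0.1134 to 0.0353. The average age change over NF and FFab stayed between -0.93 and -0.71 for ANXA13 and between -1.25 and -0.91 for TM4SF4, with 0 calls. No paired analysis was possible because the groups share no rabbit numbers, other than by slide, which was run as a block and within slides. Litter and sex did not enter the fits, and HOXA10 values near background have no order.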

Other observations

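The NF rabbit of day 35 that was set aside had a KRT18 level of 11.77, an ANXA13 level of 16.00, a TM4SF4 level of 17.92 and a CDH17 level of 14.73. Its TM4SF4 and CDH17 levels were higher than those of all 56 rabbits used. The median correlation of its array with the others was 0.936, against 0.962 to 0.980 for the arrays used.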
